A study of Mus musculus with 8 samples.

Results

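Lipolysis in fat is switched on and off by receptors for catecholamines and natriuretic peptides. The data described here are the expression values of 8 such genes in inguinal white adipose tissue (ING WAT): the adrenergic receptor genes *Adrb1*, *Adrb3*, *Adra1a*, *Adra2a* and *Adra2c*, the natriuretic peptide receptor gene *Npr1*, and *Prkar2b* and *Prkaca*, which encode a regulatory and the main catalytic subunit of protein kinase A (PKA). They were picked by gene symbol out of 39041 genes. The rule used no measured value, but earlier results of these data were known when the genes were chosen. All 8 were found in the data, and 6 of them had a mean of at least 1 FPKM (fragments mapped, set against transcript length and library size) over all mice, the level required for the test across genes. *Adra2a* and *Adra2c* did not.

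The samples were poly(A)+ RNA of ING WAT from C57BL/6j mice, 4 killed at postnatal day 21 (PN21: m1, m49, m138 and m145) and 4 at postnatal day 98 (PN98: m35, m106, m114 and m125). All mice were bred on the AIN93G diet and housed at room temperature, and they received little food during the night before dissection. PN98 mice had been fed AIN93M or a western style diet since PN42. The sources used here do not say which of these diets the sequenced animals ate, nor which sex was sequenced at PN21. Nothing in the labels says whether mice of the same age were littermates, so the tests measure the spread between these mice, which may be technical in part. The files hold no read counts, and the depth of the libraries is unknown. The sum of all FPKM was 1946840 to 3000870 at PN21 and 1645720 to 1777180 at PN98, and transcripts of the mitochondrial genome held 48.5% to 59.6% and 41.5% to 50.4% of it. The highest mitochondrial share was that of the PN21 mouse m145 and the lowest that of the PN98 mouse m35, and these mice also stood apart in earlier results of these data.

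In the textbook scheme, noradrenaline binds beta-adrenergic receptors on the adipocyte, which act through the stimulatory G protein on adenylyl cyclase. The cyclic AMP that is formed binds the regulatory subunits of PKA and frees the catalytic subunits, which phosphorylate perilipin and hormone-sensitive lipase. Alpha-2 receptors act through the inhibitory G protein and lower cyclic AMP, whereas alpha-1 receptors act through Gq on calcium. The receptor encoded by *Npr1* is a guanylyl cyclase that makes cyclic GMP, and the receptor encoded by *Npr3* removes the peptides from the circulation. The beta receptor encoded by *Adrb3* is the typical one of rodent fat cells, and the RII-beta subunit encoded by *Prkar2b* is the regulatory subunit that marks fat and brain.

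For 6 of the 8 genes a RefSeq window of 250 bases before the start of the gene was at hand (GRCm38.p6): *Adrb1*, *Adra2a*, *Adra2c*, *Prkar2b*, *Prkaca* and *Npr1*. The windows of the 3 genes below are printed because *Prkar2b* and *Npr1* were the genes of the fit whose 2 ages did not overlap, and *Prkaca* encodes the partner of *Prkar2b*, with ages that overlapped. They run 5′ to 3′ on the strand of the gene, at chr12:32061297-32061527 (minus strand), chr3:90465867-90466116 (minus strand) and chr8:83972728-83972977 (plus strand). Capitals mark matches on either strand to the E-box CACGTG, to TGACG, the core of the cyclic AMP response element, or to TATAAA.
Prkar2b: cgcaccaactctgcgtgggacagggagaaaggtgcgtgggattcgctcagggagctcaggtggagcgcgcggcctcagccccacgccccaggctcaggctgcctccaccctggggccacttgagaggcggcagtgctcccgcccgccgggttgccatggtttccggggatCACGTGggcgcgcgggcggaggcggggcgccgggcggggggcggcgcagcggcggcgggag
Npr1: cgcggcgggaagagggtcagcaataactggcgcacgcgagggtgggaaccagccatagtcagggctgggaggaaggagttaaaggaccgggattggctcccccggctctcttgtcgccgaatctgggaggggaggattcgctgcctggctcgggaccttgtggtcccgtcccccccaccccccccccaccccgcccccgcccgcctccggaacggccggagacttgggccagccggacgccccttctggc
Prkaca: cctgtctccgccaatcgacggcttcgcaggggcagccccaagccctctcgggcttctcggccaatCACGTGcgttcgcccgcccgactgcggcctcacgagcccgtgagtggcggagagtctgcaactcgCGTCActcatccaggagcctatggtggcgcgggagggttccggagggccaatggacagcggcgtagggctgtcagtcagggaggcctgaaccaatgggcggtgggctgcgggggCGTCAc
An E-box stood in the windows of 4 of the 6 genes (*Adra2a*, *Adra2c*, *Prkar2b* and *Prkaca*), against 6.02% of all 32851 windows. TGACG stood in 3 of the 6 (*Adrb1*, *Adra2a* and *Prkaca*), against 17.8% of all windows. *Adra2a* alone held TATAAA, which 12.4% of all windows hold. The windows of these 6 genes held 53.6% to 75.6% G and C, against a median of 52.4% over all windows, and a match of letters is a description only. The windows of *Adra2a* and *Adra2c* lie inside the gene as GENCODE vM21 draws it and are therefore not printed.

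The 8 genes spanned more than 3 orders of magnitude in level. FPKM is per length of transcript, so levels can be set side by side between genes. At PN21 the order of mean FPKM was *Prkar2b*, *Prkaca*, *Adrb3*, *Npr1*, *Adra1a*, *Adrb1*, *Adra2a* and *Adra2c*. At PN98 *Adrb3* stood before *Prkaca*, and the order was otherwise the one of PN21. Neighbours whose ranges over the 4 mice overlapped were *Prkaca* and *Adrb3* at both ages, *Adra1a* and *Adrb1* and *Adrb1* and *Adra2a* at PN21, and *Adra2a* and *Adra2c* at PN98. By mean over the 8 mice, *Prkar2b* was number 509 of 39041 genes and *Adra2c* number 21603.

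**Figure D1:**
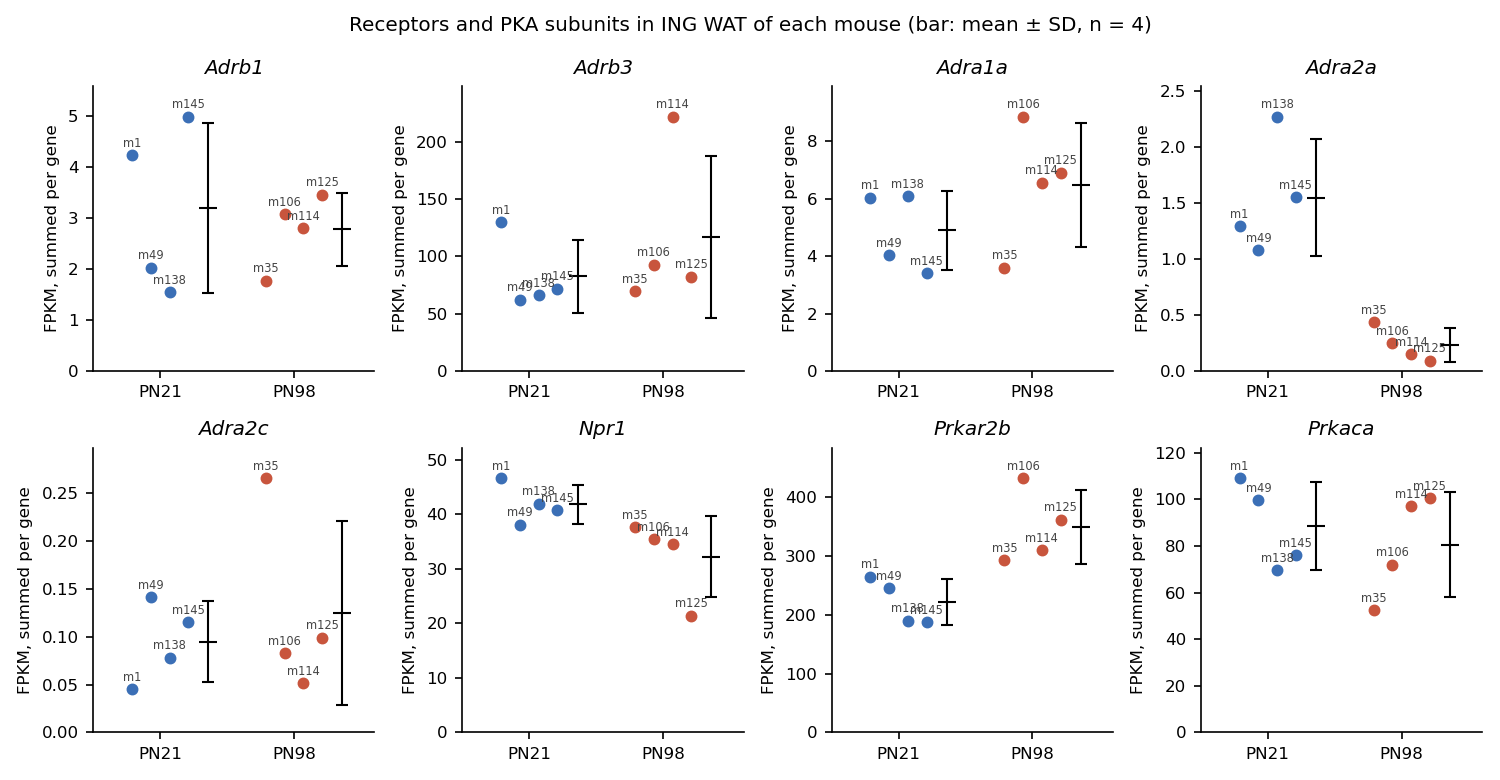
FPKM summed over the transcripts of each gene (y axis, from 0, scale differs per panel) in each mouse at PN21 (blue) and PN98 (red), with mean ± SD of 4 mice beside the points. *Adra2a* and *Npr1* lay lower and *Prkar2b* lay higher in every PN98 mouse than in any PN21 mouse, and the other 5 genes overlapped.

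Between the ages, none of the 6 genes that could be tested passed. With limma on log2(FPKM + 1) and Benjamini-Hochberg adjustment over all genes tested, 0 of the 6 had an adjusted p under 0.05, against 5.39% of 16214 genes. At an unadjusted p under 0.05 it was 1 of the 6 (*Prkar2b*), against 27.4% of all genes. Fold changes are on the scale of log2(FPKM + 1) and are given as PN98 minus PN21, so a positive value is higher at PN98. The median over the 6 genes was 0.12, with 3 values above 0 and 3 below, whereas the median of all genes tested was −0.21. This last value moves with the scaling of the libraries, to −0.01 with libraries brought to 1 common sum over nuclear genes and to −0.03 with median of ratios scaling. Single fold changes below should be read against it. Without any overlap between the ages were 3 of the 8 genes, against 12.7% of the 28005 genes above 0 in at least 1 mouse. Under both other scalings it was 2 of the 8, since *Npr1* then overlapped.

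Coordinates of genes are those of GENCODE vM21 on GRCm38. *Adrb3* (ENSMUSG00000031489, chr8:27225776-27250616, minus strand), which encodes the beta receptor typical of rodent fat cells, reached 130, 62.1, 66.4 and 71.8 FPKM at PN21, in the order m1, m49, m138 and m145. The PN98 values were 69.6, 93.0, 222 and 82.4 FPKM, in the order m35, m106, m114 and m125, and both orders hold for all lists of values below. A single mouse stood high at each age, m1 at PN21 and m114 at PN98, and the ages overlapped. Mean FPKM was 82.5 ± 31.7 for PN21 and 117 ± 71.0 for PN98 mice (SD, n = 4 each). The log2 fold change was 0.40 with a 95% confidence interval from −0.50 to 1.30 (limma, adjusted p = 0.514). Without m114 the log2 fold change was 0.04, and without m1 it was 0.64.

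*Adrb1* (ENSMUSG00000035283, chr19:56722199-56733113, plus strand) encodes the other beta receptor measured here, which is shared with heart. It had 4.23, 2.02, 1.54 and 4.99 FPKM at PN21 and 1.77, 3.07, 2.80 and 3.46 FPKM at PN98. All PN98 mice lay within the range of the PN21 mice. Its log2 fold change was −0.08 (95% confidence interval −0.79 to 0.62, limma, adjusted p = 0.879), and the sign turned under both other scalings. It also turned without m1 (0.05), without m145 (0.12), without m35 (0.06) and without both m145 and m35 (0.26). In every mouse *Adrb3* exceeded *Adrb1*, from 14.4 times in m145 to 79.3 times in m114.

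*Adra1a* (ENSMUSG00000045875, chr14:66635251-66771168, plus strand) encodes an alpha-1 receptor that couples to Gq. Its values were 6.04, 4.04, 6.10 and 3.40 FPKM at PN21 and 3.60, 8.87, 6.56 and 6.91 FPKM at PN98. All PN98 mice other than m35 lay above the PN21 mice. The log2 fold change was 0.32 (95% confidence interval −0.30 to 0.95, limma, adjusted p = 0.456). It was 0.54 without m35, 0.19 without m145 and 0.17 without m106. For the transcript with the highest mean it was 0.72 (95% confidence interval 0.09 to 1.36, limma, adjusted p = 0.152), and for the transcript with the lowest p, without a pseudocount, 1.06 (0.13 to 1.99, adjusted p = 0.196).

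*Adra2a* (ENSMUSG00000033717, chr19:54044151-54048982, plus strand), which encodes the alpha-2 receptor that holds lipolysis back through the inhibitory G protein, was the member that differed most. It had 1.29, 1.08, 2.27 and 1.55 FPKM at PN21 and 0.435, 0.250, 0.150 and 0.0905 FPKM at PN98. Every PN98 mouse lay below every PN21 mouse, and the mean was 6.68-fold lower at PN98. A value of this kind, lower at PN98 without overlap, was found in 5.55% of the 11791 genes above 0 with a mean under 1 FPKM, and in 8.56% of those with a mean of at least 0.1 FPKM. The difference of mean log2(FPKM + 1) was −1.03 (two-sided exact permutation test over 70 splits, p = 0.0286, the smallest that 4 against 4 mice allow). When genes of all levels were tested together, limma gave an adjusted p of 0.0239 for *Adra2a*, with a 95% confidence interval from −1.41 to −0.66, and 3.56% of 28005 genes passed, with 2.01% of the 28005 lower at PN98. With a pseudocount of 0.1 in place of 1 the difference was −2.37. How many fragments stand behind these low values is unknown. Without m145 and m35 the difference was −1.10.

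*Adra2c* (ENSMUSG00000045318, chr5:35278319-35281763, plus strand), the other alpha-2 receptor gene among the members, was close to 0 throughout. Its values were 0.0450, 0.142, 0.0779 and 0.115 FPKM at PN21 and 0.266, 0.0826, 0.0517 and 0.0989 FPKM at PN98. The PN98 mouse m35 stood above all other mice, and the remaining mice overlapped. No difference between the ages was detectable at this level (two-sided exact permutation test, p = 0.743).

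*Prkar2b* (ENSMUSG00000002997, chr12:31958476-32061296, minus strand) was the most abundant member and the only one in the fit that lay higher in every PN98 mouse. It had 264, 244, 190 and 187 FPKM at PN21 and 293, 432, 310 and 361 FPKM at PN98. The mean was 221 ± 39.0 FPKM at PN21 and 349 ± 62.6 FPKM at PN98 (SD, n = 4 each), a ratio of 1.58, and the gene did not pass the test over all genes. Its log2 fold change was 0.65 (95% confidence interval 0.21 to 1.10, limma, adjusted p = 0.0885). Groups without overlap and higher at PN98 were found in 6.03% of the genes in the fit. Both other scalings kept the groups apart, with adjusted p-values of 0.0579 and 0.0669. Without the PN98 mouse m35 the adjusted p was 0.0387, and with a weight for each mouse (limma arrayWeights) it was 0.0186. Without both m145 and m35 the log2 fold change was 0.66 (limma, adjusted p = 0.0764).

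*Prkaca* (ENSMUSG00000005469, chr8:83972993-83996443, plus strand), encoding the catalytic subunit, had 109, 99.6, 69.8 and 76.1 FPKM at PN21 and 52.5, 72.0, 97.2 and 101 FPKM at PN98. The ages overlapped, with the lowest value in m35. The log2 fold change was −0.16 (95% confidence interval −0.74 to 0.42, limma, adjusted p = 0.699), and its sign turned under both other scalings and without m35 (0.03). Without single other mice it ran from −0.28 to −0.05, and without both m145 and m35 it was −0.04. The pseudogene *Prkaca-ps1* had 2.58 to 7.52 FPKM in the 8 mice. Of the 11062 genes compared, it had the pattern over the mice most like that of *Prkaca*, and reads that fit both copies could have been counted for either, so both values are uncertain to that extent.

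*Npr1* (ENSMUSG00000027931, chr3:90450591-90465866, minus strand), the gene of the guanylyl cyclase receptor for atrial and B-type natriuretic peptides, had 46.6, 38.1, 41.9 and 40.7 FPKM at PN21 and 37.6, 35.5, 34.4 and 21.4 FPKM at PN98. As deposited, every PN98 mouse lay below every PN21 mouse, and 16.1% of the genes in the fit had no overlap in either direction. The gap between m35 and m49 was small, and after either other scaling the ages overlapped. Its log2 fold change of −0.39 (95% confidence interval −0.86 to 0.07, limma, adjusted p = 0.234) was nearer to the median of all genes than to 0. Without m125 it was −0.21, and for the transcript with the lowest p, without a pseudocount, −0.64. *Npr1* had the smallest spread of the members at PN21, with an SD of 8.55% of the mean.

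**Figure D2:**
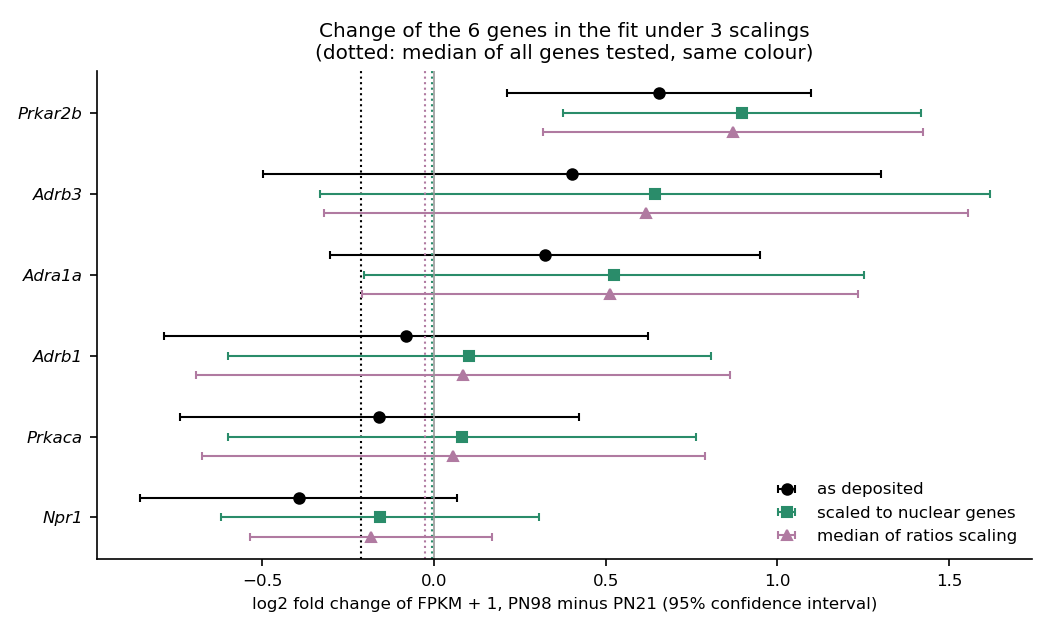
Log2 fold change of FPKM + 1 (x axis, PN98 minus PN21) with 95% confidence intervals from limma for the 6 genes in the fit, as deposited (black), scaled to nuclear genes (green) and with median of ratios scaling (violet), with the median of all genes as dotted lines. The interval of *Prkar2b* lay above 0 under all 3 scalings, although its adjusted p did not pass, and those of the other 5 genes held 0.

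The deposited values are split by transcript, and the split was estimated by Cufflinks. *Adrb3* had 3 transcripts, and ENSMUST00000081438 made up 63.1% to 78.0% of the gene in PN21 mice and 73.4% to 85.9% in PN98 mice. All 3 encode a full receptor, with a coding length of 1200 bases in a pair of them and 1212 bases in ENSMUST00000117565, which held at most 11.4%. *Prkar2b* also had 3 transcripts. ENSMUST00000036497 and ENSMUST00000003079 have the same coding length of 1248 bases and together held most of the FPKM in every mouse, whereas ENSMUST00000146865, with a coding length of 768 bases, held 2.76% to 33.4% at PN21 and 7.40% to 39.9% at PN98. For each of the 3 transcripts the shares overlapped between the ages.

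Of the 5 transcripts of *Npr1*, only ENSMUST00000029540 encodes the full receptor (coding length 3171 bases), and it held 30.7% to 46.8% of the FPKM of the gene. This transcript alone had 21.8, 12.6, 14.9 and 15.4 FPKM at PN21 and 17.2, 13.1, 11.7 and 6.56 FPKM at PN98, so that the ages overlapped (log2 fold change −0.43, limma, adjusted p = 0.357). The remainder lay in a processed transcript, in retained introns and in a transcript marked for decay. A gene on the opposite strand, *Gm16048*, overlaps *Npr1* and had at most 2.62 FPKM. The library kit kept the strand, but whether the counting used it is not stated. *Adra1a* was split over 5 transcripts, whose shares shifted from mouse to mouse, for example from 4.51% in m35 to 64.2% in m114 for ENSMUST00000054661. *Adrb1*, *Adra2a*, *Adra2c* and *Prkaca* had 1 transcript each.

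**Figure D3:**
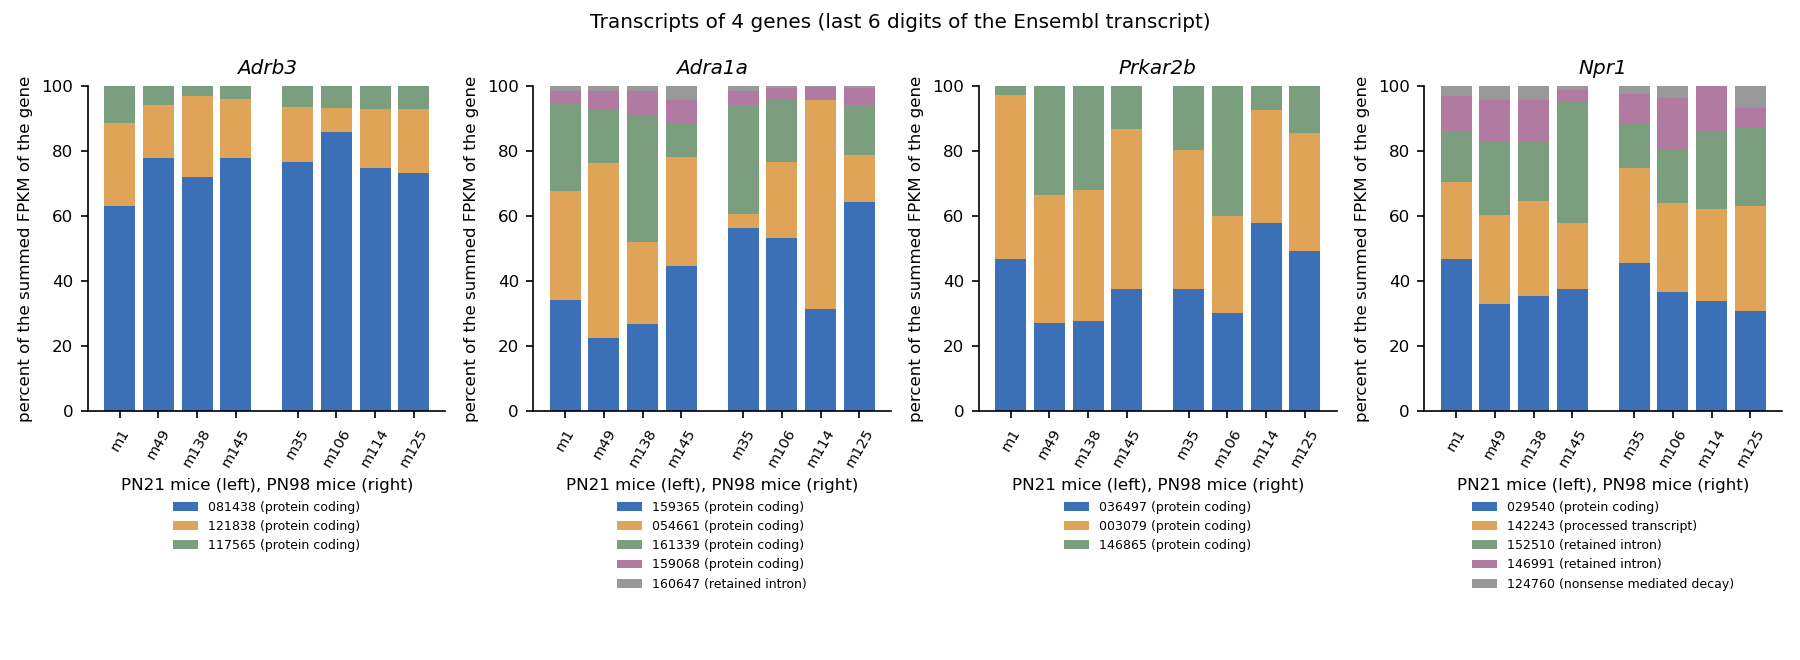
Percent of the summed FPKM of a gene in each of its transcripts (stacked bars, y axis 0 to 100) in each mouse, for *Adrb3*, *Adra1a*, *Prkar2b* and *Npr1*. ENSMUST00000081438 held most of *Adrb3* in all 8 mice, whereas the shares of *Adra1a* and *Prkar2b* differed between mice of the same age.

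Ratios between genes within a mouse do not change with the scaling, apart from the pseudocount. Of the 6 ratios tested, the sharpest split was that between the signalling receptor and the clearance receptor for natriuretic peptides. The log2 ratio of *Npr1* to *Npr3* was 1.32, 2.16, 1.97 and 0.98 at PN21 and −1.59, −1.08, −2.26 and −0.80 at PN98. *Npr1* thus exceeded *Npr3* in every PN21 mouse and fell short of it in every PN98 mouse, a difference of −3.04 (two-sided exact permutation test, p = 0.0286, Benjamini-Hochberg 0.0857 over 6 ratios). Most of this difference lay in *Npr3* (log2 fold change 2.64), whereas that of *Npr1* was −0.39. The ratio thus mostly repeats the values of *Npr3*, which are given below. In FPKM, *Npr1* was 2.02 to 4.91 times *Npr3* at PN21 and 0.204 to 0.563 times *Npr3* at PN98. These ratios use the sum over all transcripts of *Npr1*, most of which do not encode the full receptor. Taken alone, the full-receptor transcript ENSMUST00000029540 fell below *Npr3* in the PN21 mouse m145 (15.4 against 20.1 FPKM). It lay above *Npr3* in the other PN21 mice and below it in every PN98 mouse. The log2 ratio of *Adra2a* to *Adra2c* was also lower in every PN98 mouse, by 1.07 (exact permutation test, p = 0.0286, Benjamini-Hochberg 0.0857). *Adra2c* was close to 0 in all mice, so this ratio mostly repeats the values of *Adra2a* and is no separate result. Its size depends on the pseudocount (−2.52 with 0.1).

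The log2 ratio of *Adrb3* to *Adra2a*, a stimulatory against an inhibitory receptor, was 5.83, 4.93, 4.37 and 4.84 at PN21 and 5.62, 6.23, 7.60 and 6.26 at PN98. With the pseudocount of 1, only m1 at PN21 lay above the lowest PN98 mouse, m35. As a plain quotient of FPKM the ages did not overlap, with 29.3 to 100 at PN21 and 160 to 1478 at PN98. The low values of *Adra2a* make this ratio depend on the pseudocount, and with 0.1 the difference was 2.78. The means differed by 1.44 (exact permutation test, p = 0.0571, Benjamini-Hochberg 0.0857). For *Prkar2b* to *Prkar1a*, which encodes the regulatory subunit found in most tissues, the log2 ratio was 0.88 higher at PN98, and 1 PN21 mouse lay above the lowest PN98 mouse (exact permutation test, p = 0.0571, Benjamini-Hochberg 0.0857). *Adrb3* to *Adrb1* (p = 0.429) and *Prkaca* to *Prkacb* (p = 0.971) overlapped widely in the exact permutation test. None of the 6 ratios passed the correction. The smallest exact p for 4 against 4 mice is 0.0286, so a ratio without overlap could pass only if several others also reached that value. The failure to pass therefore says little about the size of any single difference.

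**Figure D4:**
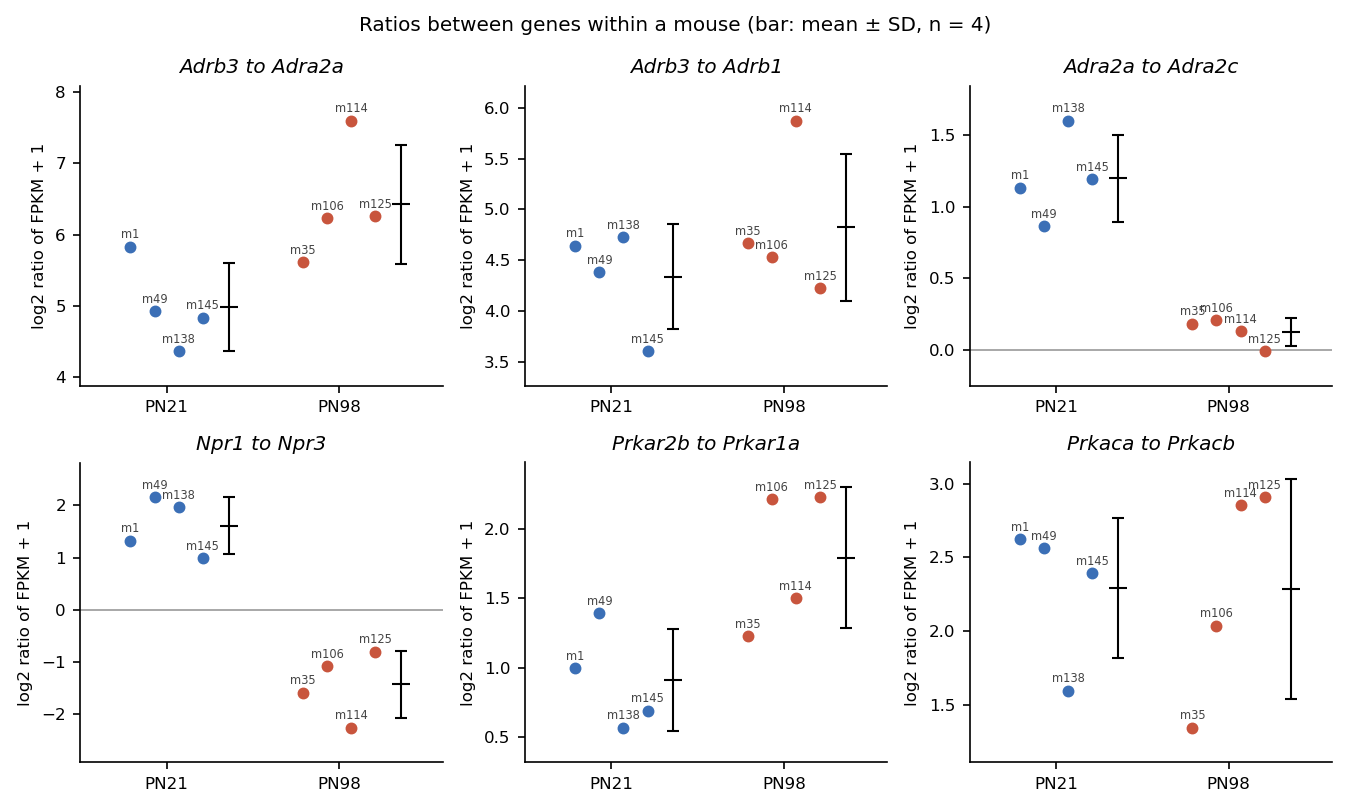
Log2 ratio of FPKM + 1 of 2 genes (y axis, scale differs per panel, not from 0) in each mouse at PN21 (blue) and PN98 (red), with mean ± SD of 4 mice. *Npr1* to *Npr3* was above 0 in all PN21 mice and below 0 in all PN98 mice, and *Adra2a* to *Adra2c* did not overlap between the ages.

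Around the members, 86 other genes of the pathway were sorted into 11 lists, and 65 of them had a mean of at least 1 FPKM. Of these 65, 9 were higher and 0 lower at PN98 with an adjusted p under 0.05 (limma), against 2.37% higher and 3.02% lower of all genes in the fit. The median log2 fold change of the 65 was 0.21, and that of all genes −0.21. With scaling to nuclear genes it was 12 higher and 0 lower, beside 3.85% higher and 1.93% lower of all genes. These calls rested on all mice: without m106 or without m114, 2 of the 9 were left (*Sucnr1* and *Slc22a3*), without m49 or without m138 3 of them, and without m145 4. Without m35 all 9 were left, and 15 genes were higher and 5 lower. Without both m145 and m35, 8 of the 9 were left (all except *Maoa*), and 4 genes were lower. The direction of all 9 was kept in each of these fits.

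Both other natriuretic peptide receptor genes rose at PN98. *Npr3*, encoding the clearance receptor, had 18.02, 7.75, 9.99 and 20.1 FPKM at PN21 and 115, 75.9, 169 and 38.0 FPKM at PN98. Its values did not overlap, and the log2 fold change was 2.64 (95% confidence interval 1.55 to 3.74, limma, adjusted p = 0.0217). *Npr2*, encoding the receptor for C-type natriuretic peptide, rose from 20.6 ± 4.81 to 40.9 ± 2.40 FPKM (SD, n = 4 each, limma, adjusted p = 0.0229). Of this list of 10 genes, 4 were in the fit and 2 were called. The peptide genes *Nppa*, *Nppb* and *Nppc* were at or near 0 in all mice.

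Among receptors that couple to the inhibitory G protein and hold lipolysis back, 2 of the 6 in the fit were called higher at PN98. The share over all genes in the fit was 2.37%. Under both other scalings 3 of the 6 were called. Of the 6, 4 lay higher in every PN98 mouse than in any PN21 mouse, against 6.03% of the genes in the fit. *Sucnr1*, encoding the succinate receptor, had 6.70, 8.70, 4.75 and 8.58 FPKM at PN21 and 32.4, 30.2, 44.1 and 18.7 FPKM at PN98. That was a log2 fold change of 1.95 (limma, adjusted p = 0.0112). *Ffar2*, encoding a receptor for short-chain fatty acids, rose from 17.3 ± 5.73 to 51.5 ± 17.2 FPKM (SD, n = 4 each, limma, adjusted p = 0.0258). *Adra2a*, whose receptor couples to the same G protein, lay lower at PN98. *Gnai1*, encoding an inhibitory G protein alpha subunit, rose from 34.9 ± 6.48 to 80.9 ± 14.3 FPKM (SD, n = 4 each, limma, adjusted p = 0.0166) and was the only one of 7 alpha subunit genes that passed. *Gnas*, encoding the stimulatory subunit, had 897 ± 127 and 790 ± 57.8 FPKM (SD, n = 4 each) and a log2 fold change of −0.18, which turned sign under both other scalings (limma, adjusted p = 0.473). Of 4 other Gs-coupled receptor genes in the fit, 0 were called with limma and 0 had an unadjusted p under 0.05. *Adora2b* of this list was under the level required for the test. It lay lower in every PN98 mouse, with 0.639 to 1.09 FPKM at PN21 and 0.234 to 0.531 FPKM at PN98. This was so for 8.56% of genes with a mean of 0.1 to under 1 FPKM.

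Cyclic AMP is made by adenylyl cyclases and broken down by phosphodiesterases. Of 7 adenylyl cyclase genes in the fit, 0 were called with limma and 1 had an unadjusted p under 0.05, with a median log2 fold change of 0.11, and *Adcy3*, a cyclase of fat cells, had 11.3 ± 2.32 and 16.2 ± 2.99 FPKM (SD, n = 4 each, limma, adjusted p = 0.183). *Pde3b*, the phosphodiesterase through which insulin lowers cyclic AMP in fat cells, had 34.2, 32.1, 36.1 and 23.0 FPKM at PN21 and 57.0, 125.01, 71.4 and 94.6 FPKM at PN98. It was the only phosphodiesterase gene of 9 that passed the test (log2 fold change 1.40, limma, adjusted p = 0.0248). *Pde7b* was also higher in every PN98 mouse, with 2.15 to 3.82 FPKM at PN21 and 3.89 to 5.26 FPKM at PN98 (limma, adjusted p = 0.159).

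Of 10 other genes for PKA subunits, inhibitors and anchors in the fit, 0 were called with limma and 0 had an unadjusted p under 0.05. *Prkar1a* had 117 ± 17.7 and 101 ± 20.7 FPKM, *Prkar2a* 7.07 ± 1.26 and 7.49 ± 1.10 FPKM, and *Prkacb* 17.2 ± 3.67 and 15.5 ± 3.62 FPKM at PN21 and PN98 (SD, n = 4 each). *Prkar2b* exceeded *Prkar1a* in every mouse, from 1.49 times in m138 to 4.73 times in m125. Of the 7 genes for receptor kinases, arrestins and RGS proteins, 0 were called with limma and 1 had an unadjusted p under 0.05, and their median log2 fold change was −0.62.

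At the end of the pathway, *Lipe*, encoding hormone-sensitive lipase, rose from 376 ± 74.8 to 750 ± 160 FPKM (SD, n = 4 each, limma, adjusted p = 0.0410) and was the only one of 6 lipolytic genes called as deposited. It did not pass with a pseudocount of 0.1, with no filter on low values (limma, adjusted p = 0.0519) or with a trend in the prior of limma. Scaling to nuclear genes brought the calls in this list to 3. In the list on catecholamines, 2 genes for the removal of catecholamines rose as well. *Slc22a3*, encoding an extraneuronal transporter of monoamines, went from 8.94 ± 1.24 to 21.9 ± 1.86 FPKM (limma, adjusted p = 0.0065), and *Maoa*, encoding a monoamine oxidase, from 3.83 ± 0.636 to 7.56 ± 1.38 FPKM (limma, adjusted p = 0.0383, SD, n = 4 each). *Th*, encoding the enzyme that starts catecholamine synthesis, was listed at 0 in all 8 mice. *Ddc*, another synthesis gene of this list, was under the level required for the test. It lay lower in every PN98 mouse, with 0.713 to 1.11 FPKM at PN21 and 0.195 to 0.604 FPKM at PN98. This was so for 8.56% of genes with a mean of 0.1 to under 1 FPKM.

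**Figure D5:**
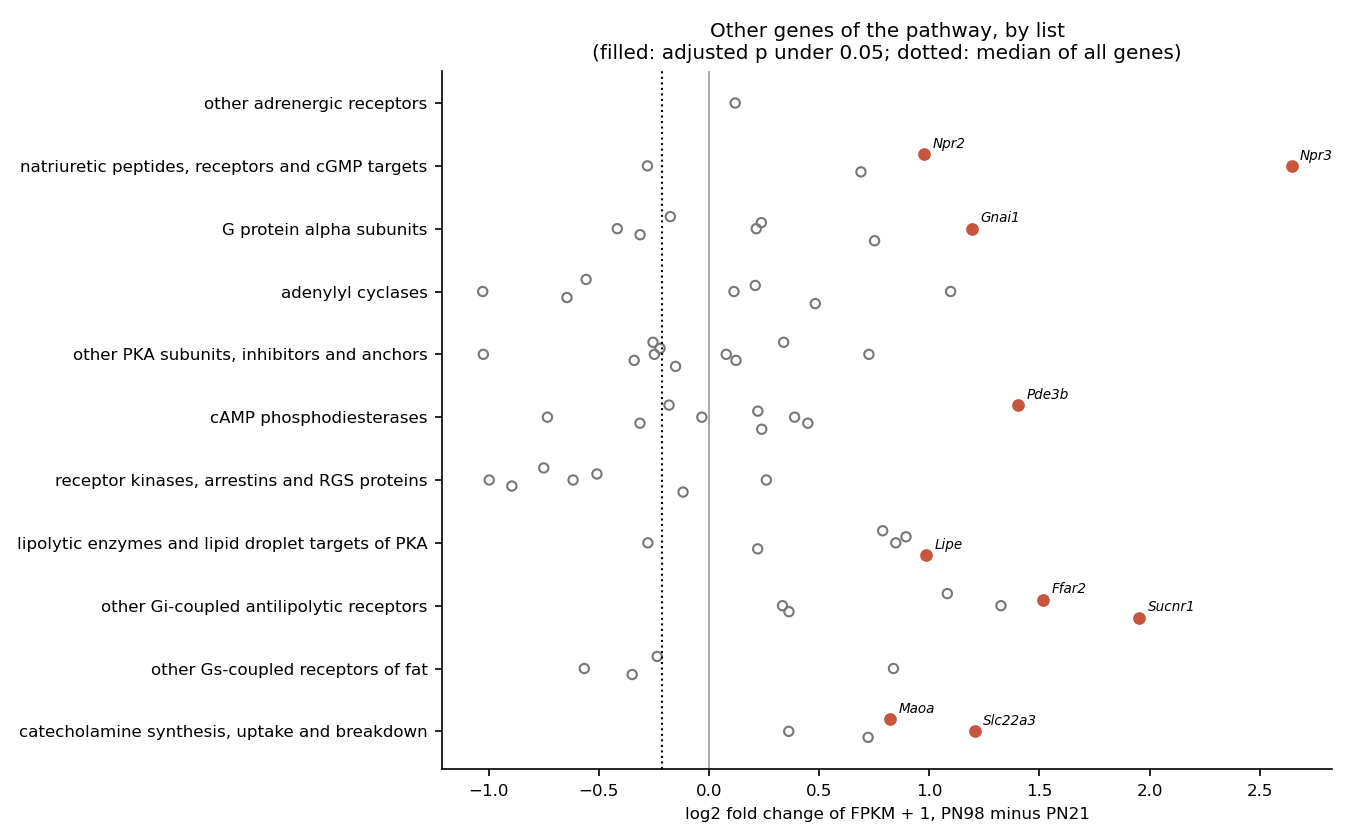
Log2 fold change of FPKM + 1 (x axis, PN98 minus PN21, as deposited) of the 65 other pathway genes in the fit, sorted into 11 lists (rows), with filled points for genes with an adjusted p under 0.05 in limma. The 9 filled points all lay at 0.82 or more, and the median of all genes (dotted) lay at −0.21.

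The genes most like a member over the 8 mice were sought among 11062 genes of at least 5 FPKM, as the smallest root mean square difference of centred log2 values. For *Prkar2b* they were *Pex19*, a chaperone of peroxisomal membrane proteins, *Tex2* and *Coro2b*, at a difference of 0.09 to 0.11. For *Adrb3* they were the processed pseudogene *Gm3852*, *Hcar1* and *Tenm4*, at 0.19 to 0.25. *Hcar1* encodes the lactate receptor of fat cells, and, as in *Adrb3*, its highest values at each age were in m1 (41.2 FPKM) and m114 (55.4 FPKM). *Npr1* was followed most closely by *Kctd5*, *Tm7sf3* and *Nagpa* (0.06 to 0.08), and *Adra1a* by *Gid4*, *Msi2* and *Elmod2* (0.13 to 0.16). These are likenesses over 8 mice of 2 ages and no more.

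Because the tissue was sequenced whole, fewer cells of a type and less RNA per cell cannot be told apart. Defining adipocyte genes were present in every mouse, and the sum of 6 of them was 12107 to 22368 FPKM at PN21 and 32851 to 42943 FPKM at PN98. *Adipoq* (limma, adjusted p = 0.0105) and *Cidec* (adjusted p = 0.0020) passed the test. *Fabp4* set this sum, with 10641 to 20251 FPKM at PN21 and 27521 to 37466 FPKM at PN98. Neither *Fabp4* (limma, adjusted p = 0.0528) nor *Lep* (adjusted p = 0.0681) passed, although both were higher in every PN98 mouse. *Pparg* had 97.5 to 133 and 57.5 to 147 FPKM and *Cebpa* 158 to 269 and 172 to 405 FPKM, so both overlapped. The summed level of 6 epithelial genes was 2.09 to 27.6 FPKM at PN21 and 0.490 to 1.38 FPKM at PN98, and that of 6 fibroblast and progenitor genes was 647 to 1491 and 380 to 746 FPKM. In each of these lists 1 gene passed, *Epcam* and *Col1a1*, both lower at PN98. *Epcam* had 1.19 to 2.62 FPKM at PN21 and 0.0421 to 0.964 FPKM at PN98. It thus reached the level required for the test only through the PN21 mice, which favours a call in this direction. *Col1a1* set the sum of the fibroblast and progenitor genes, with 356 to 1125 FPKM at PN21 and 35.1 to 146 FPKM at PN98. *Dcn* of the same list had 223 to 476 and 278 to 471 FPKM. The part that these cell types have in the values of *Adra2a*, *Prkar2b* or *Npr3* was not tested.

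In the lists of lymphocyte, endothelial, smooth muscle, macrophage and brown adipocyte markers, 0 of the 29 genes in the fit passed with limma at an adjusted p under 0.05, and 5 had an unadjusted p under 0.05. Sums of 6 lymphocyte genes ran from 289 to 714 FPKM at PN21 and from 14.3 to 629 FPKM at PN98, of which m35 had 629, the PN98 mouse in which *Adra2a* was highest and *Prkar2b* lowest. Endothelial genes (180 to 257 and 80.6 to 280 FPKM), smooth muscle genes (122 to 241 and 56.4 to 371 FPKM) and macrophage genes (576 to 981 and 287 to 1025 FPKM) overlapped between the ages. Brown adipocyte genes had 2183 to 4732 FPKM at PN21 and 311 to 3477 FPKM at PN98. Of these, *Ucp1* had 544, 650, 586 and 559 FPKM at PN21 and 7.41, 278, 56.3 and 356 FPKM at PN98, lower in every PN98 mouse (limma, adjusted p = 0.144). *Dio2* was also lower in every PN98 mouse (limma, adjusted p = 0.0781). The other genes of this list overlapped between the ages, and some PN98 mice lay above all PN21 mice. *Cidea* had 405 to 631 FPKM at PN21 and 55.2, 721, 187 and 1064 FPKM at PN98. *Elovl3* had 0.574 to 6.91 FPKM at PN21 and 0.581, 55.9, 2.67 and 54.1 FPKM at PN98. Of the 5 skeletal muscle genes measured, the sum was 5.11 to 315 FPKM at PN21 and 273 to 1850 FPKM at PN98, and *Actn3* passed (limma, adjusted p = 0.0313). The Y-linked gene *Ddx3y* was expressed in all mice, at 18.1 to 22.1 FPKM at PN21 and 19.9 to 25.9 FPKM at PN98. *Eif2s3y* had 45.8 to 84.5 and 38.9 to 70.4 FPKM, *Uty* 3.49 to 5.68 and 3.28 to 5.02 FPKM, and *Kdm5d* 3.72 to 6.01 and 2.41 to 5.26 FPKM. *Xist*, a gene expressed in females, had 0.247 to 0.832 FPKM at PN21 and at most 0.00704 FPKM at PN98. Y-linked genes were thus present in every sample at similar levels, as in males.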

How the data were processed

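Poly(A)+ RNA of ING WAT from 8 C57BL/6j mice was sequenced by the authors in pairs on an Illumina HiSeq after a strand-keeping library kit. Reads were demultiplexed with CASAVA 1.8.2, checked with FastQC, aligned to mm10 (GRCm38) with STAR 2.3.0 and quantified with Cufflinks 2.1.1, per the submitters' notes and the methods of the study. The deposited values are FPKM, 1 per Ensembl transcript and mouse. They are not counts, so no count test was used, and no depth, interval of counting error or floor can be given.

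Of 91969 deposited transcripts, 40426 had lost a decimal mark. The marks were put back from the deposited SD, average and score columns of the same row, which the authors computed over 10 values (the 8 mice and 2 not used here). A single reading was left for 40155 of them, and 271 were left out. In a second deposited table with whole marks, 5006 of 5006 such transcripts were equal in all 8 mice, within a relative difference of 1e-05 plus 1e-06 FPKM. The authors' own contrast columns there (fold changes, ratios and p-values) were not used. FPKM was summed per gene, and 10 transcripts naming no gene were left out. Of the transcripts, 88737 matched GENCODE vM21, which gave IDs and coordinates.

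Groups came from the labels. PN98 was compared with PN21 with limma 3.58.1 in R 4.3.3 on log2(FPKM + 1) for 16214 genes with a mean of at least 1 FPKM, with Benjamini-Hochberg adjustment over all of them. Members under this level and 6 ratios were tested with two-sided exact permutation tests over 70 splits (Python 3.11.15, scipy 1.17.1). The fit was tested on simulated data in which few genes changed. A log2 change of −1 or 1 passed in 26% and 30% of the genes given it, and a change of −2 or 2 in 72% and 74%. A gene that did not pass may therefore still differ. Alternatives were other pseudocounts, filters, scalings, weights and transcripts, and leaving out mice. Those for *Adra2a*, *Adra2c* and the pathway calls without single mice were added after the data were seen.

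The members and lists were chosen with earlier results of these data known. Named beside the 8 members were their direct counterparts, up to 3 further genes per list with the largest fold change among those that passed, and the 3 genes most like each of the 4 members with the largest fold change. *Prkaca-ps1*, *Gm16048*, the peptide genes, *Th*, *Ddc*, *Adora2b*, *Pde7b* and the marker genes were named after their values were seen. *Acta1*, one of the muscle markers, was not analysed here. The result of 1 marker list is not reported here.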

Additional observations from a re-analysis of the deposited data

Results flagged for a closer look

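In 4 of the 56 groups of 4 mice tested, 1 mouse lay so far from the others that its gap to the nearest of them exceeded the 95% critical share of the group's range (Dixon's test). Chance flags about 1 in 20 groups. *Adrb3* was flagged at both ages, with 130 FPKM in the PN21 mouse m1 against 62.1 to 71.8 FPKM in the others, and with 222 FPKM in the PN98 mouse m114 against 69.6 to 93.0 FPKM. *Lipe* had 487 FPKM in m1 against 326 to 349 FPKM in the other PN21 mice. *Adcy3* had 11.7 FPKM in m114 against 17.4 to 18.2 FPKM in the other PN98 mice.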

How the results depend on the processing

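The log2 fold change of *Prkar2b* passed the threshold with arrayWeights (0.74, adjusted p = 0.0186 in limma) and without m35 (0.73, adjusted p = 0.0387), and it ran from 0.55 to 0.75 when single mice were left out. The count of members called was 1 with no filter on low values (*Adra2a*), 1 with arrayWeights (*Prkar2b*), and 0 to 1 without single mice, where it was *Prkar2b* without m35 and *Adra2a* without m125. Of the fits without single mice, *Adra2a* entered only that without m125, its lowest value, where its mean reached 1 FPKM. All its PN98 values were under 1 FPKM, so it entered through the PN21 mice, and that call is no test of stability. Over all genes the count of 874 became 4746 with arrayWeights, 311 with the transcript of lowest p, 2593 without m145 and m35, and 211 to 3630 without single mice. With transcripts that had lost a mark left out, 393 genes and no member were tested, and 0 were called. For the other pathway genes, 2 to 15 were called higher and 0 to 5 lower without single mice, and 4 lower without m145 and m35. Scaling to nuclear genes and median of ratios scaling brought the lipolytic enzymes called higher to 3 and 2, from 1, and the latter the adenylyl cyclases to 1, from 0. Of all genes called, 56.1% were lower at PN98 as deposited, 33.4% after scaling to nuclear genes and 38.3% with median of ratios scaling. In no setting was a called value turned in sign. The cause of these shifts was not tested. Leaving out 1 mouse allows an exact p of 0.0571 at the least, so the exact tests then say nothing about stability. Ratios could not be computed with transcripts that had lost a mark left out. No paired analysis was possible, because each mouse was killed at 1 age and nothing in the labels links mice of different ages.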
